A study of Mus musculus with 48 samples.

Results

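The 59 genes described here code for the machinery that pulls chromosomes apart and splits a dividing cell, and they were followed in mouse liver through ribosome profiling and the paired cytoplasmic RNA. They were taken by gene symbol from the 20622 genes of the RNA tables, and each of them also had a counted transcript among the 16269 of the ribosome-protected fragment (RPF) tables. Sorted by role, 12 belong to the centromere and inner kinetochore, 12 to the outer kinetochore and corona, 7 to the spindle checkpoint and cohesin protection, 3 to the chromosomal passenger complex, 11 are kinesins, 8 are spindle-associated proteins, 4 act in cytokinesis and 2 fall outside these roles. The labels give the 24 mice as male, whereas the study's general methods describe both sexes for most experiments. Each mouse was an individual liver that gave 1 RPF and 1 RNA library, with 3 mice in each of 8 groups. All 8 groups, WT included, received AAV8.TBG.Cre, a virus in which the hepatocyte promoter TBG drives Cre recombinase. WT mice carried no conditional allele, B mice carried Ctnnb1ex3/WT, in which Cre removes an exon and leaves a stable β-catenin, M mice carried R26-LSL-MYC, in which Cre releases a MYC transgene, and BM mice carried both. Livers were taken 4 or 10 days after the virus, the inductions being staggered so that every harvest fell together. Recombination was directed to hepatocytes, and the ground liver that was profiled also held the other cells of the organ.

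Chromosome segregation depends on the kinetochore, a layered protein body that assembles on centromeric chromatin and grips spindle microtubules. Checkpoint proteins hold back anaphase until every kinetochore is attached, kinesins and microtubule-binding proteins shape the spindle, and a contractile ring built with anillin and formins parts the daughter cells. Adult hepatocytes are mostly at rest and often polyploid, and most of these genes are read in bursts around mitosis, so their products are scarce in quiescent liver and are widely used as signs of proliferation.

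RPF libraries held between 9742197 and 14380713 counts over coding sequences, with a median of 12503695, and RNA libraries held between 3254141 and 6540116 expected counts. Levels below are counts scaled to a common library size by TMM (CPM), translation efficiency (TE) is the RPF level per RNA level, and a gene was called when its Benjamini-Hochberg adjusted p from edgeR's quasi-likelihood test, taken over all genes tested, was under 0.1. The alleles could be read in the libraries. RPFs of the β-catenin target Glul lay between 825 and 862 CPM in WT mice of day 4 and between 3060 and 4648 in B mice, and RPFs assigned to Myc lay between 2.43 and 18.3 CPM in WT, 57.5 and 62.1 in M and 44.4 and 59.2 in BM, where reads of the transgene and of mouse Myc cannot be told apart. In B of day 4, RPFs assigned to Myc lay between 11.9 and 35.3 CPM and overlapped with WT. In BM of day 10, Glul lay between 1630 and 3479 CPM against 511 to 851 in WT. Axin2, read for the same allele, lay between 6.20 and 26.7 CPM there, against 1.84 to 2.36 in WT. Each comparison with WT at one day used the same 3 WT mice, and the p-values measure the spread between these mice.

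In WT livers of day 4 much of the set was scarce. Per transcript length, RNA of Zwint, which recruits checkpoint proteins to the outer kinetochore, came first at 27.3 ± 1.50 (mean ± SD, n = 3) in TPM, a share of transcripts corrected for length, followed by the checkpoint protein gene Bub3 at 23.5 ± 1.08 and the cytokinesis gene Ect2 at 7.27 ± 2.14. Zwint and Bub3 did not overlap with Ect2, and their mice lay close to each other. Of the 59 members 35 averaged at least 10 RNA counts and 18 at least 10 RPF counts, 15 held 3 or fewer RPF counts in every WT mouse, and Cenpi, Cenpu, Kif18b and Depdc1a held none in any of them. In BM livers of the same day all 59 averaged at least 10 RPF counts, and 58 did so in M, 38 in B. At day 10 members with that many RPF counts numbered 24 for WT, 59 for B, 58 for M and 54 for BM.

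**Figure D1:**
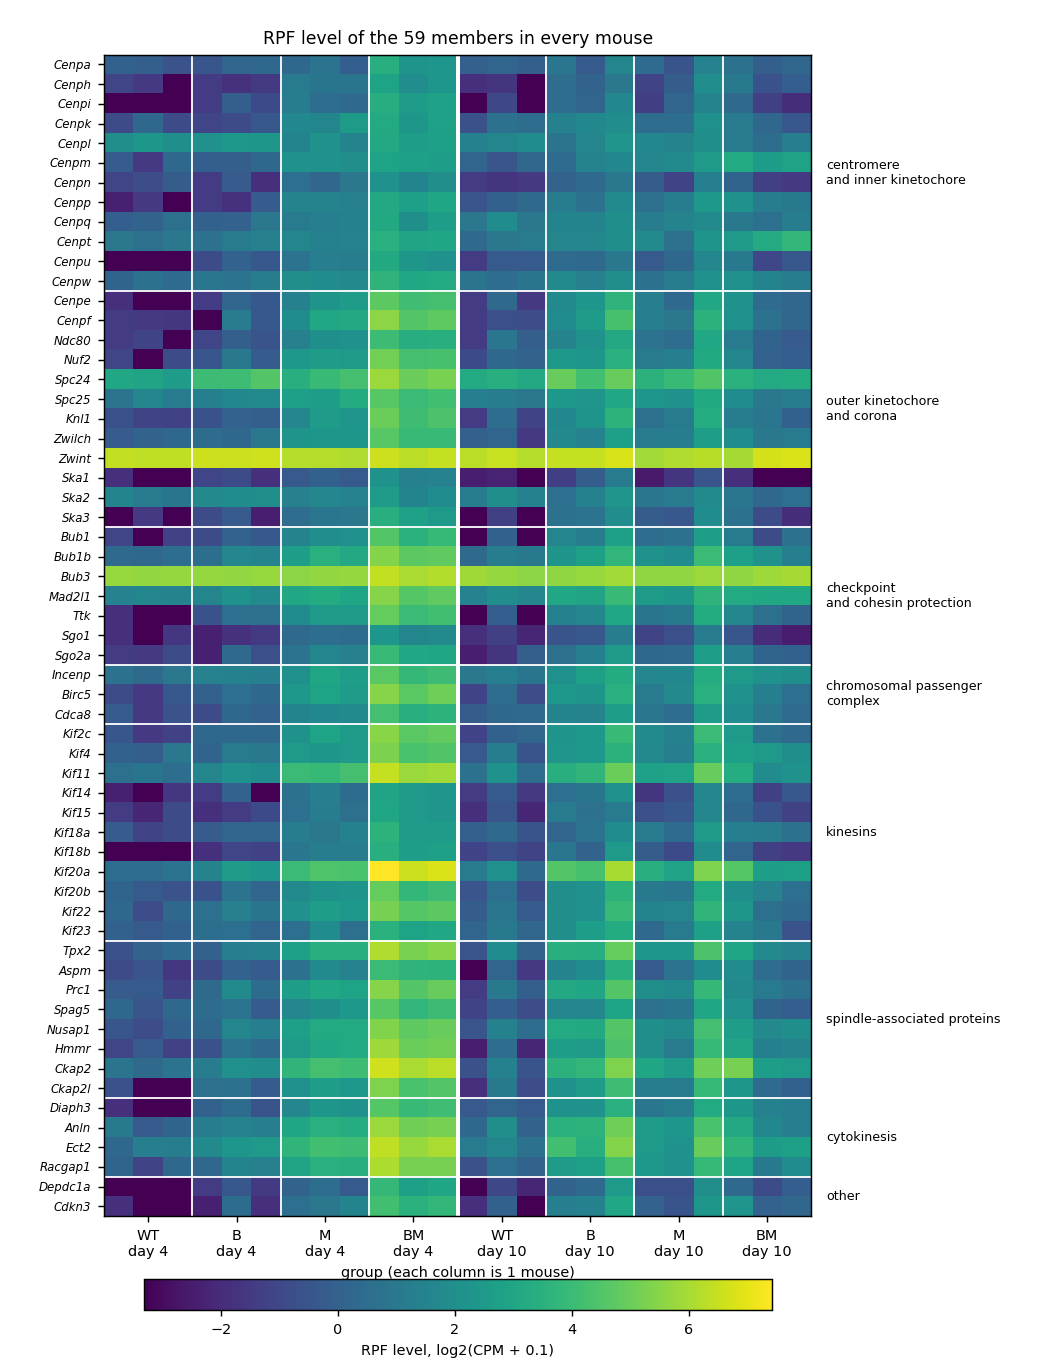
RPF level of each of the 59 genes (rows, by role) in each of the 24 mice (columns, by group), as log2 of CPM plus a pseudocount of 0.1. The 3 BM mice of day 4 form the brightest block, M day 4 and B day 10 are intermediate, and the rows of Zwint and Bub3 keep a near even level across the mice.

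With MYC alone, and with MYC and mutant β-catenin together, most of these genes were higher than in WT at day 4. Counting all 59 members whatever their depth, 54 lay in the 3 M mice above every WT mouse in RPFs and 39 in RNA, where 15.5% and 11.3% of all genes did so. In BM the numbers were 57 and 57, against 19.7% and 14.2% of all genes. The fit called 52 members higher and 1 lower in RPFs of M mice out of 56 tested, where 18.5% of all genes were called higher and 14.7% lower, and 31 of 50 higher in RNA, where 13.5% were. Cenpl, Ska2 and Bub3 were tested in RPFs of M and not called, and Cenpa, Ska1 and Depdc1a had too few counts to be tested. In BM mice 58 of 59 were called higher in RPFs and 57 in RNA, where 26.2% and 21.3% of all genes were. A member empty in WT enters such a fit only through the mice in which it is high. The 44 members with over 3 counts in at least 1 WT mouse were therefore also counted alone. Some of the 44 still entered only through the mutant mice: 28 of them were tested in RPFs of B, 43 in M and 44 in BM. Of the 44, 39 of 43 tested in M and 43 of 44 in BM were called higher in RPFs, and 24 of 40 and 42 of 44 in RNA. Their median log2 change was 2.56 in RPFs and 0.83 in RNA in M, and 4.64 and 2.51 in BM, whereas the median over all genes lay within 0.05 of 0. Scaling by library totals alone would move every RPF change up by 0.25 in M and 0.45 in BM and every RNA change by 0.36 and 0.55.

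The summed levels showed the same order of groups. Leaving aside Zwint and Bub3, which outweigh the rest in WT, the RPFs of the other 57 members at day 4 added up to 50.3 ± 2.06 CPM (n = 3) for WT livers, 101 ± 21.2 for B, 303 ± 48.5 for M and 1315 ± 389 for BM. Summed RNA of these members came to 244 ± 46.1, 273 ± 25.8, 450 ± 65.3 and 1535 ± 411 CPM for the same groups. The RPF sums of the 4 genotypes rank B above WT, M above B and BM above M with no mouse out of place, while in RNA the means of WT and B differ by less than their spread. RPFs per RNA of this sum were 0.274, 0.183 and 0.181 in the WT mice, 0.309, 0.431 and 0.362 in B, 0.657, 0.714 and 0.650 in M and 0.880, 0.848 and 0.832 in BM.

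**Figure D2:**
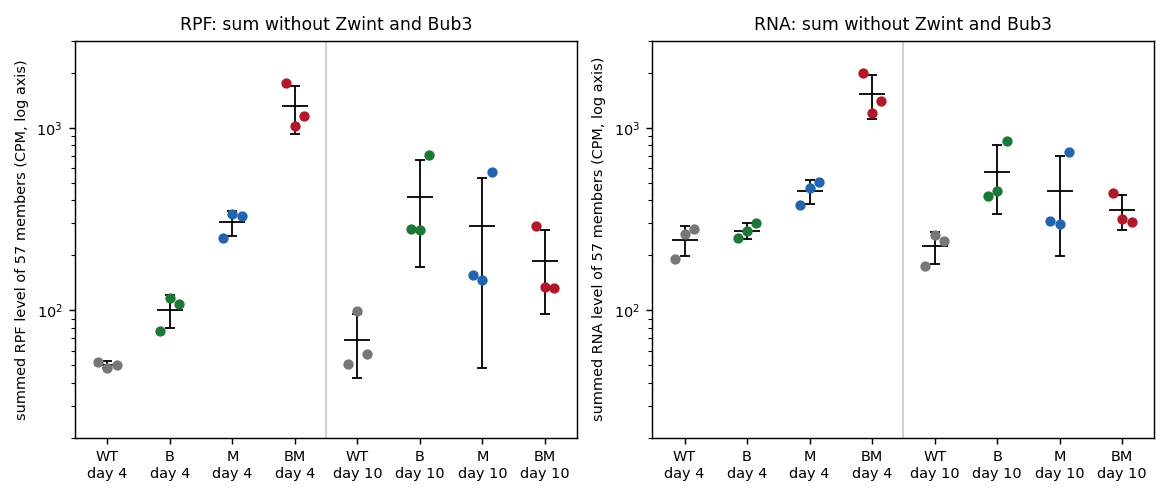
Summed CPM of 57 members (Zwint and Bub3 left out) in RPFs and in RNA, on a log axis. Each point is a mouse and each bar a group mean with its SD (n = 3). BM day 4 stands highest in both panels, with means of 1315 in RPFs and 1535 in RNA, and within B day 10 and M day 10 one mouse stands far above the other two.

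Kinesins move along microtubules to separate spindle poles, slide chromosomes and build the midzone, and all 11 of them were called higher in RPFs of both M and BM livers at day 4, although only 4 of 10 tested passed in RNA of M. Of all genes, 18.5% in M and 26.2% in BM were called higher in RPFs, and 13.5% in RNA of M. Counts by role at day 4, here and below, include members with 3 or fewer RPF counts in each WT mouse. These enter the RPF fit only through the mutant mice: Kif14, Kif18b, Diaph3, Ttk, Sgo1, Cenpe, Cenpf, Ndc80, Ska1, Ska3, Cenpi, Cenpp, Cenpu, Depdc1a and Cdkn3. Kif20a, the midzone kinesin needed for cytokinesis, had 1.38, 1.34 and 1.58 RPF CPM in WT mice, 16.1, 21.9 and 20.4 in M and 171, 94.0 and 116 in BM. Its RNA stood at 5.34, 9 and 9.36 CPM in WT, 12.9, 16.1 and 16.9 in M and 90.5, 48.8 and 64.1 in BM. The 3 groups were separate in both measures, with a far wider gap in RPFs. On the log2 scale Kif20a rose by 3.79 ± 0.19 (SE) in RPFs and 0.96 ± 0.21 in RNA of M, and by 6.48 ± 0.27 and 3.11 ± 0.24 in BM. Kif11, the plus-end motor that pushes spindle poles apart, had 1.47, 1.70 and 1.36 RPF CPM in WT, 16.1, 14.7 and 19.1 in M and 88.6, 56.3 and 60.7 in BM, and its RNA read 12.5, 16.5 and 16.1 CPM in WT, 22.4, 24.3 and 28.9 in M and 97.3, 61.9 and 70.5 in BM. No group overlapped with another in either measure. Its RPF change was 3.49 ± 0.18 in M (adjusted p = 8.08e-06) and 5.52 ± 0.23 in BM (adjusted p = 7.21e-08), and its RNA change 0.74 ± 0.16 and 2.35 ± 0.17. Kif23, the centralspindlin motor of the cell midbody, was called in RPFs of BM and not in RNA. It had 0.919, 0.728 and 0.904 RPF CPM in WT and 11.6, 7.40 and 8.47 in BM. RNA of Kif23 was 6.23, 7.68 and 8.64 CPM in WT and 10.6, 8.30 and 12.6 in BM, with overlap, whereas the RPFs were far apart. The RPF change was 3.43 ± 0.27 and that of RNA 0.48 ± 0.22, which did not pass (adjusted p = 0.101). Kif2c, a microtubule depolymerase at centromeres, had 0.644, 0.243 and 0.339 RPF CPM in WT, 4.30, 7.51 and 5.72 in M and 45.4, 25.5 and 28.4 in BM. Its RNA of 5.57, 11.4 and 8.40 CPM in WT overlapped with the 7.41, 9.23 and 10.9 of M and lay below the 29.6, 20.4 and 21.9 of BM.

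All 4 cytokinesis genes, Ect2, Anln, Diaph3 and Racgap1, were called higher in RPFs of M and BM at day 4, and in RNA 2 of 4 passed in M. Ect2, an exchange factor that starts furrowing at the future cleavage site, had 1.1, 2.31 and 2.15 RPF CPM in WT mice, 12.8, 18 and 16.6 in M and 83.3, 53.9 and 66.3 in BM. RNA of Ect2 was 18, 32.9 and 27.8 CPM in WT, 31.7, 35.0 and 39.3 in M and 124, 78.7 and 107 in BM. RPFs of the 3 genotypes were far apart, and RNA of 1 WT mouse lay within the M range. The changes were 3.16 ± 0.24 in RPFs (adjusted p = 4.45e-05) and 0.43 ± 0.17 in RNA (adjusted p = 0.111) for M, and 5.25 ± 0.23 and 1.98 ± 0.19 for BM. Anln, whose protein anillin scaffolds the contractile ring, had 1.93, 0.728 and 1.02 RPF CPM in WT, 7.81, 11.3 and 9.90 in M and 56.1, 34.3 and 37.4 in BM. Its RNA gave 8.46, 14.5 and 19.9 CPM in WT, 13.1, 16.5 and 20.9 in M and 50.0, 29.9 and 33.1 in BM, so that M and WT overlapped in RNA and not in RPFs. Diaph3, a formin that builds actin filaments, was counted 2, 0 and 0 times among RPFs of the WT mice, 35, 65 and 49 times in M and 393, 228 and 260 times in BM. Its mean RPF level was 305-fold higher in BM than in WT (95% counting interval 72.7 to 2179) and 68.0-fold higher in M (16 to 490). The intervals are wide because WT held 2 counts in all.

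Among genes of spindle-binding proteins, 8 of 8 were called higher in RPFs of M and BM at day 4 and 5 of 8 in RNA of M. Ckap2, a microtubule-stabilising protein, had 1.66, 1.21 and 1.58 RPF CPM in WT, 13.0, 19.1 and 16.9 in M and 101, 65.6 and 78.4 in BM, and an RNA level of 1.56, 2.2 and 5.52 CPM in WT, 6.84, 5.66 and 6.89 in M and 32.8, 25.2 and 27.1 in BM. Tpx2, which activates Aurora A on the spindle, had 0.552, 0.971 and 1.24 RPF CPM in WT, 6.58, 11.0 and 10.9 in M and 70.6, 38.7 and 44.1 in BM. Its RNA levels were 5.12, 10.3 and 12.7 CPM in WT, 10.8, 14.6 and 12.0 in M and 53.1, 34.1 and 35.4 in BM. Both genes were separate between genotypes in RPFs, and Tpx2 RNA of M overlapped with WT. In BM the RPF fold was 54.9 for Ckap2 and 55.4 for Tpx2, and the RNA fold 9.18 and 4.36. Hmmr, a receptor of hyaluronan that also sits on spindle poles, was called in RPFs and in RNA and not in TE. It had 0.368, 0.728 and 0.339 RPF CPM in WT and 57.8, 31.8 and 33.6 in BM, and RNA of 1.78, 2.2 and 4.32 CPM in WT and 112, 56.7 and 73.4 in BM. The change was 6.45 ± 0.36 in RPFs, 4.88 ± 0.31 in RNA and 1.55 ± 0.80 in TE (adjusted p = 0.567).

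The chromosomal passenger complex places Aurora B at centromeres and at the midzone. Its members Incenp, Birc5 and Cdca8 were called higher in RPFs and in RNA of both M and BM livers at day 4. Birc5, coding for survivin, had 0.460, 0.243 and 0.678 RPF CPM in WT, 5.18, 7.36 and 5.81 in M and 44.2, 25.6 and 32.9 in BM, and RNA of 1.34, 0.878 and 2.64 CPM in WT, 3.99, 8.19 and 6.44 in M and 33.4, 23.3 and 32.8 in BM, with no overlap. Incenp, the scaffold of the complex, had 1.56, 1.21 and 1.81 RPF CPM in WT, 4.04, 7.97 and 6.45 in M and 25.2, 14.2 and 16.5 in BM. RNA of Incenp was 1.34, 2.41 and 1.44 CPM in WT, 2.28, 4.02 and 5.33 in M and 12.6, 9.86 and 7.84 in BM. The RPFs were separate between genotypes for both genes, and Incenp RNA of 1 M mouse lay under the highest WT mouse. RPFs of BM were 74.5-fold higher for Birc5 and 12.2-fold for Incenp, and RNA 18.5-fold and 5.84-fold. For Cdca8, which codes for borealin, the changes in BM were 4.69 ± 0.34 in RPFs and 4.72 ± 0.49 in RNA.

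Of the 7 checkpoint and cohesin-protection members, 6 were called higher in RPFs of M at day 4 and 7 in BM. Bub3, part of the checkpoint complex and also active outside mitosis, had 54.2, 50.9 and 51.9 RPF CPM in WT, 46.5, 51.6 and 51.9 in M and 85.3, 66.8 and 72.8 in BM. M mice overlapped with WT and BM mice did not, with a change of -0.03 ± 0.08 in M and 0.54 ± 0.10 in BM. Mad2l1, the inhibitor of the anaphase-promoting complex, had 2.57, 2.91 and 2.71 RPF CPM in WT, 8.51, 9.73 and 7.81 in M and 44.4, 23.8 and 27.9 in BM, and RNA of 10.9, 9.88 and 7.68 CPM in WT, 15.2, 14.9 and 18 in M and 64.0, 38.9 and 51.1 in BM. The 3 genotypes were separate in both measures. Ttk, the kinase that starts checkpoint signalling, was counted 2, 0 and 0 times in the WT mice, 40, 72 and 63 in M and 486, 239 and 269 in BM. Its RPF level was 80.2-fold higher in M (18.8 to 574) and 343-fold higher in BM (82.1 to 2458). RNA of Ttk stood at 1.56, 3.29 and 1.92 CPM in WT, 6.46, 7 and 6.66 in M and 35.0, 17.6 and 23.2 in BM. Sgo1 and Sgo2a, the shugoshins that protect centromeric cohesin, were also higher in BM, and reads of Sgo2a may be shared with its near copy Sgo2b.

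The outer kinetochore and its corona hold the parts that grip microtubules. In M livers of day 4, 9 of 11 tested were called higher in RPFs and 1 lower, and in BM 11 of 12 were called higher. Spc24, of the NDC80 complex, had 8.28, 7.65 and 5.99 RPF CPM in WT, 11.0, 15.5 and 19.2 in M and 55.7, 31.3 and 38.2 in BM, and RNA of 3.34, 4.61 and 2.88 CPM in WT, 8.17, 8.19 and 7.77 in M and 21.6, 13.1 and 11.6 in BM. The 3 genotypes did not overlap, and the changes were of like size in both measures, 2.53 ± 0.21 in RPFs and 2.09 ± 0.29 in RNA of BM. Cenpe, the corona motor that carries chromosomes to the equator, was counted 2, 0 and 0 times in WT, 29, 61 and 64 in M and 430, 267 and 284 in BM, a level 70.9-fold higher in M (16.5 to 506) and 340-fold in BM (81.0 to 2426). Cenpf, a corona protein, was 28.1-fold (13.4 to 70.5) and 129-fold higher (62.5 to 322). Ska3, of the microtubule-tracking SKA complex, was counted 0, 2 and 0 times in WT and 180, 105 and 80 in BM, 95.4-fold higher (30.01 to 905). Zwint went another way. It had 86.9, 84.0 and 84.3 RPF CPM in WT, 75.1, 75.6 and 70.9 in M and 96.1, 79.7 and 87.9 in BM. The M mice lay under every WT mouse, a change of -0.17 ± 0.07 (adjusted p = 0.0983) that is smaller than the 0.25 by which library totals would shift it and so turns upward with that scaling. In BM the change was 0.07 ± 0.08 in RPFs and 0.10 ± 0.11 in RNA, and neither passed.

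Centromere and inner kinetochore genes formed the group with the lowest median RPF change in BM, 3.18 on the log2 scale, with all 12 called higher, and 10 of 11 tested passed in M. Cenpt, which links centromeric DNA to the NDC80 complex, had 1.84, 1.46 and 1.81 RPF CPM in WT, 2.98, 2.53 and 2.63 in M and 11.1, 7.60 and 8.14 in BM. Its RNA was 0.668, 0.659 and 0.240 CPM in WT, 0.95, 1.64 and 1.11 in M and 4.57, 3.98 and 3.21 in BM. Genotypes were separate in both measures, and the BM change was 2.40 ± 0.22 in RPFs and 2.84 ± 0.42 in RNA. Cenpl, part of the protein network bound to centromeric chromatin, had 3.86, 4.98 and 3.96 RPF CPM in WT, 2.81, 4.29 and 2.73 in M and 8.74, 6.36 and 6.75 in BM, the M mice overlapping with WT and the BM mice above both. Cenpp was counted 1, 2 and 0 times in WT, 31, 35 and 27 in M and 145, 100 and 119 in BM, 23.5-fold (8.11 to 121) and 69.6-fold higher (24.6 to 354). Cenpi and Cenpu were at 0 in the WT mice, and against a limit of 3 counts per library their RPFs were at least 23.7-fold and at least 18.8-fold higher in BM. By the same limit Kif18b was at least 24.2-fold and Depdc1a at least 29.5-fold higher. Depdc1a, a mitotic regulator, was counted 228, 103 and 124 times in BM and 11, 18 and 8 in M, and Cdkn3, a phosphatase of cyclin-dependent kinases, was counted 2, 0 and 0 times in WT, 16, 24 and 31 in M and 290, 175 and 206 in BM, 233-fold higher in BM (55.3 to 1661). Exons of 17 members, Cenpl, Cenpp, Cenpt, Cenpu, Cdkn3 and Kif20a among them, overlap a protein-coding gene on the opposite strand, and the strand setting of the RNA counting was not given in the sources used here.

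RPFs rose beyond RNA in a part of the set. In M livers of day 4, 20 of 48 members tested were called higher in TE and none lower, where 0.884% of all genes were called higher and 0.0865% lower. In BM 25 of 59 were called higher and none lower, where 1.71% and 0.522% were. Among members with over 3 RPF counts in a WT mouse the numbers were 14 of 39 and 16 of 44. In B 24 of these 44 were tested, so some still entered only through the M or BM mice. The mouse is a true pair of 1 RPF and 1 RNA library, and with the mouse as a block 27 members passed in M (1.75% of all genes) and 34 in BM (3.77%). In BM all 4 cytokinesis genes and 9 of 11 kinesins were called, together with both members outside the roles, 4 of 8 spindle-associated members, 2 of 7 checkpoint members, 2 of 12 in the inner and 2 of 12 in the outer kinetochore, and 0 of 3 passenger complex members. Of the members with over 3 RPF counts in a WT mouse alone, 3 of 3 cytokinesis genes, 7 of 9 kinesins, 4 of 8 spindle-associated members, 1 of 5 checkpoint members, 1 of 9 in the inner kinetochore, 0 of 7 in the outer kinetochore and 0 of 3 passenger complex members were called. Differences between roles were not tested. The numbers rest in part on single WT mice: without WT mouse 3 of day 4, 11 members passed in M and 14 in BM, and without WT mouse 2, 15 passed in BM.

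The TE of 3 called members shows the spread between mice. Kif11 had 0.118, 0.103 and 0.0844 RPFs per RNA in WT, 0.716, 0.606 and 0.661 in M and 0.911, 0.910 and 0.860 in BM. Ect2 had 0.0612, 0.0701 and 0.0772 in WT, 0.404, 0.515 and 0.423 in M and 0.670, 0.684 and 0.619 in BM. For both genes the mice of a genotype stayed close and the 3 genotypes did not overlap. Anln had 0.228, 0.0503 and 0.0511 in WT, 0.596, 0.681 and 0.474 in M and 1.12, 1.15 and 1.13 in BM, with WT mouse 1 well above the other WT mice and still no overlap. The TE change of Kif11 was 2.74 ± 0.26 in M (adjusted p = 6.1e-05) and 3.16 ± 0.36 in BM (adjusted p = 0.000139), and that of Ect2 2.74 ± 0.34 and 3.26 ± 0.39 (adjusted p = 0.000519 and 0.000198). Kif2c changed by 4.74 ± 0.54, Anln by 3.65 ± 0.48, Tpx2 by 3.69 ± 0.54, Kif20a by 3.36 ± 0.50 and Kif23 by 2.93 ± 0.37 in BM, each of them called. Other members rose in both measures with no TE call. Ckap2l changed by 6.99 in RPFs and 6.62 in RNA, Nuf2 of the NDC80 complex by 6.39 and 5.99, the kinetochore scaffold Knl1 by 5.75 and 4.94, and Sgo2a by 5.01 and 5.12. Their TE changes of 0.30 ± 1.43, 0.33 ± 1.37, 0.79 ± 0.85 and -0.16 ± 1.39 did not pass, and their errors are wide, since WT mice held 1, 1 and 3 RNA counts of Ckap2l and 3, 1 and 1 of Nuf2. Cenpm, with 0, 1 and 0 RNA counts in WT, gave a TE change of -1.69 ± 1.08 that did not pass either (adjusted p = 0.704). Members scarce in WT carry wide errors in TE: the BM fold was 56.96 for Diaph3 (95% counting interval 10.0 to 525), 30.7 for Ttk (4.86 to 316), 19.3 for Cenpe (3.24 to 186) and 48.9 for Cdkn3 (8.23 to 468).

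**Figure D3:**
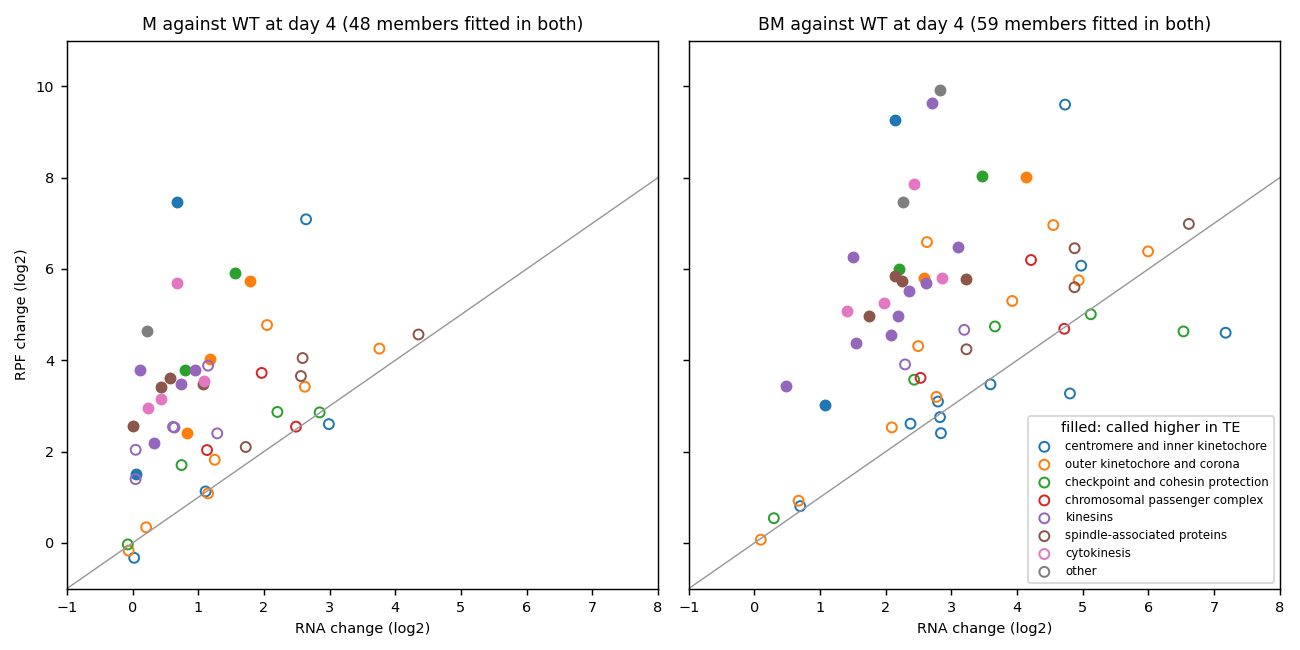
Log2 change of RNA (x) and RPFs (y) against WT at day 4, for the 48 members fitted in both in M and the 59 in BM, coloured by role, filled where TE was called higher. The line marks equal change, and in BM all 4 cytokinesis genes and 9 of 11 kinesins are filled. Among members with over 3 RPF counts in a WT mouse, 3 of 3 cytokinesis genes and 7 of 9 kinesins are.

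The start of translation is shown for members called and not called in TE, because translation begins there. The lines give 12 bases before the start codon, the codon in capitals and the 15 bases after it, 5′ to 3′, from the counted transcript in the GENCODE vM39 models on GRCm39. Ect2, Kif11, Kif23 and Anln were called higher in TE in BM, and Hmmr, Knl1, Cdca8 and Zwint were not.
Ect2 (chromosome 3, 27151371 to 27208029, minus strand): gtagtgcaaacaATGgctgacgacagcgtg
Kif11 (chromosome 19, 37364799 to 37410307, plus strand): ggctcgaccgtcATGgcgtcccagccgagt
Kif23 (chromosome 9, 61824559 to 61854073, minus strand): gagcctgcggtcATGaagtcagcgaaggct
Anln (chromosome 9, 22242402 to 22300501, minus strand): aggcctggggcgATGgacccgtttaccgag
Hmmr (chromosome 11, 40592167 to 40624280, minus strand): ccaggcgtcagaATGtcctttcctaaggcg
Knl1 (chromosome 2, 118887762 to 118935982, plus strand): aagttttcaaaaATGgatggggtatattca
Cdca8 (chromosome 4, 124812257 to 124830717, minus strand): cagccaggcgccATGgctcccaagaaacgc
Zwint (chromosome 10, 72490601 to 72510796, plus strand): agcgacagaacgATGgcggacgcggagaaa
All 8 have a purine at the third base before the codon, the base that matters most in the vertebrate start context. So have 57 of the 59 members (96.61%, against 85.43% of 16181 counted transcripts), and the share was 96% of the 25 members called in TE in BM and 97.06% of the 34 not called. A further ATG upstream lay in the 5′ leader of 10 called members (40.0%) and 20 not called (58.82%), against 62.8% of all transcripts. The median leader was 154 bases in called members, 216 in the others and 221 in all transcripts, and the median coding sequence 2505, 1137 and 1281 bases. These are descriptions of the gene models and were not tested.

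Cell-cycle genes of late phases are known for promoters with a CHR element (TTTGAA) and CCAAT boxes. The 250 bases before the annotated start are given on GRCm39 for Ect2 and Kif23, which hold both motifs, and for Zwint, the member called in neither RPFs nor RNA of BM at day 4, with the motifs in capitals in the direction of transcription (a reverse CCAAT reads ATTGG).
Ect2 (chr3:27208030-27208279, minus strand): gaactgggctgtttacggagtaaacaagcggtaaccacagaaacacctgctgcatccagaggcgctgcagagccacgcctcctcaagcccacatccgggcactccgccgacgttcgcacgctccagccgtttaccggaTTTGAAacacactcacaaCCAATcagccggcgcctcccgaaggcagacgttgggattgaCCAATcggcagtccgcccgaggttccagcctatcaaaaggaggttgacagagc
Kif23 (chr9:61854074-61854323, minus strand): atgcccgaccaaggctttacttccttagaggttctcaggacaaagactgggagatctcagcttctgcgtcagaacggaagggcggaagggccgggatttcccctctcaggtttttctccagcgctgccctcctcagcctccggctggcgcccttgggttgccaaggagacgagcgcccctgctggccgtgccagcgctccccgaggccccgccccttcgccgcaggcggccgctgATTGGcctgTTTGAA
Zwint (chr10:72490351-72490600, plus strand): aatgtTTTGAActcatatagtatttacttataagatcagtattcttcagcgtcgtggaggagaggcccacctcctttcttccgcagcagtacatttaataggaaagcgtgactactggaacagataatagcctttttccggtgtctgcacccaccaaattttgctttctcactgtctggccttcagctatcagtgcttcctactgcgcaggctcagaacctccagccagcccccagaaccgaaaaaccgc
On either strand TTTGAA occurred in 9 of 59 members (15.3%, against 13.9% of 16249 promoters of this length), CCAAT in 30 (50.8%, against 35.2%) and both in 7 (11.9%, against 5.05%). The E-box CACGTG that MYC is known to bind occurred in 3, Spc24, Sgo1 and Anln (5.08%, against 6.87%), and CTTTGAT, a core of TCF sites, in 2, Nuf2 and Bub1b (3.39%, against 2.74%). Motifs that overlap were not resolved, and a match is only a match of letters.

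Livers with both alleles stood above those with MYC alone. Between BM and M at day 4, 58 of 59 members were called higher in RPFs and 54 in RNA, where 18.8% and 14.6% of all genes were, with Ska2 the one not called in RPFs. The median change was 2.08 in RPFs and 1.69 in RNA. Kif20a rose by 2.68 ± 0.21 in RPFs and 2.15 ± 0.20 in RNA, Kif11 by 2.03 ± 0.17 and 1.61 ± 0.16, Birc5 by 2.46 ± 0.21 and 2.24 ± 0.22, and Zwint by 0.23 ± 0.08 in RPFs. In TE edgeR called 0 of 59 members (0.0377% of all genes higher and 0.0566% lower), with 9 at an unadjusted p under 0.05, 8 of them higher, and DESeq2 also called 0. With the mouse as a block 9 were called higher (1.37% of all genes), Kif23, Kif2c, Anln, Kif22, Bub1, Tpx2, Kif20a, Ect2 and Kif11, by between 0.42 and 1.55 on the log2 scale, and Cenpp was called lower (0.754% of all genes).

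Mutant β-catenin alone gave few calls in the set at day 4 and many at day 10. At day 4, 8 of 28 members tested were called higher in RPFs (6.21% of all genes) and 2 of 37 in RNA (4.41%), and none was called lower (6.26% and 3.73% of all genes). Over all 59, 28 lay above every WT mouse in RPFs (10.4% of all genes) and 7 in RNA (6.94%). Spc24 was the one member that passed in both: it had 16.3, 16.6 and 23.5 RPF CPM in B against 8.28, 7.65 and 5.99 in WT and 9.53, 8.70 and 9.22 RNA CPM against 3.34, 4.61 and 2.88. Neither measure overlapped, with changes of 1.34 ± 0.18 and 1.33 ± 0.23, while Knl1 passed in RNA and was too scarce to be tested in RPFs. Kif2c, Kif11, Kif20a, Prc1, Ckap2 and Ect2 passed in RPFs and not in RNA, and Nusap1 passed in RPFs and was not tested in RNA. Kif20a had 2.67, 5.78 and 4.93 RPF CPM in B and Kif11 2.85, 4.20 and 3.66, all above the WT mice, and their RPF changes were 1.62 ± 0.32 and 1.23 ± 0.25 with RNA changes of -0.08 ± 0.25 and 0.01 ± 0.16. In TE edgeR and DESeq2 called 0 of 24 members (0.0293% of all genes higher and 0.0195% lower), with 6 at an unadjusted p under 0.05, and with the mouse as a block Ect2 and Kif20a were called higher (0.117% of all genes). The number of RPF calls fell to 4 without B mouse 2.

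At day 10, B livers had 50 of 57 members tested called higher in RPFs (13.1% of all genes) and 37 of 50 in RNA (8.14%), none being lower (12.1% and 7.48% of all genes), and over all 59, 52 lay above every WT mouse in RPFs (15.1%) and 45 in RNA (9.51%). Among members with over 3 RPF counts in a WT mouse of day 10, 47 of 54 tested were called in RPFs and 36 of 49 in RNA. Some of these, too, reached the count filter only through the B mice. Calls were spread over every role, from 9 of 12 in the inner kinetochore to 8 of 8 spindle-associated and 4 of 4 cytokinesis genes. Kif20a had 23.5, 19.5 and 64.6 RPF CPM against 2.10, 4.09 and 1.20 in WT, Kif11 10.6, 12.8 and 32.0 against 1.49, 4.50 and 1.32, and Ect2 17.8, 10.7 and 42.9 against 2.01, 2.97 and 1.56. In each of these the B mice were above every WT mouse, B mouse 3 stood far above the other B mice, and WT mouse 2 above the other WT mice. The changes were 3.84 ± 0.56, 2.91 ± 0.55 and 3.43 ± 0.54 in RPFs and 1.94 ± 0.35, 0.92 ± 0.28 and 1.00 ± 0.28 in RNA. Summed RPFs of the 59 members were 414, 418 and 874 CPM in B and 188, 243 and 177 in WT. In TE edgeR called 0 of 50 (0.0282% of all genes higher and as many lower) with 17 at an unadjusted p under 0.05, DESeq2 called 1, and 19 passed with the mouse as a block (1.32% of all genes). Without WT mouse 1 of day 10 the RNA calls fell to 18, and without WT mouse 3 to 22. Tested as a difference between days, the B effect was higher at day 10 in RPFs of 11 members and lower in 1 of 57 (8.39% and 8.83% of all genes), the higher ones including Cenph, Mad2l1, Kif4, Kif23, Spag5 and Anln, and higher in RNA of 7 of 50 (4.3%). These counts rested on single mice. Leaving out 1 mouse gave 2 to 22 calls in RPFs, with 10 of 12 mice moving the count over 1.5 times, and 2 to 12 in RNA, with 8 of 12 doing so.

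M livers at day 10 were uneven. RPFs of the 59 members summed to 265, 265 and 701 CPM, so that M mouse 3 stood far above the other two. Called higher were 34 of 48 members in RPFs (10.6% of all genes) and 18 of 43 in RNA (8.53%), with none lower (8.8% and 7.12% of all genes), and 40 and 29 of all 59 lay above every WT mouse (13.7% and 9.67%). Racgap1, the GTPase-activating partner of Kif23, had 5.12, 4.25 and 14.7 RPF CPM against 0.525, 1.43 and 0.961 in WT, a change of 3.05 ± 0.59. Ect2 had 5.56, 4.39 and 30.5 and Kif11 6.88, 7.18 and 30.1. M mice 1 and 2 lay above every WT mouse by less than M mouse 3 did. RPF calls fell to 3 without WT mouse 1, to 21 without WT mouse 2 and to 3 without WT mouse 3, and RNA calls to 3 without WT mouse 1 and 6 without WT mouse 3 or M mouse 3. In TE edgeR and DESeq2 called 0 of 40 (0.0% of all genes), with 4 at an unadjusted p under 0.05, and 6 passed with the mouse as a block (0.268%). No difference of the M effect between days was called by edgeR, with 0 calls in RPFs of 58 members (0.633% of all genes higher and 0.546% lower), 0 in RNA (0.467% and 0.735%) and 0 in TE (0.0%). At an unadjusted p under 0.05 there were 4, 2 and 2, DESeq2 called 2 in RPFs, and without M mouse 3 of day 10 edgeR called 16 in RPFs.

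In BM livers the set had come down by day 10. Summed RPFs of the 59 members went from 1939, 1170 and 1326 CPM at day 4 to 403, 296 and 308 at day 10, beside 188, 243 and 177 in WT of day 10. Kif20a had 23.7, 6.29 and 6.78 RPF CPM in BM at day 10, Kif11 9.81, 3.49 and 4.30, Ect2 12.8, 5.90 and 6.69 and Ckap2 37.2, 6.37 and 5.45. All of these lie below every BM mouse of day 4, and BM mouse 1 stands highest of the day. Set against the WT mice of each day, the BM effect was smaller at day 10 in RPFs of 52 of 59 members (18.6% of all genes were lower) and in RNA of 43 of 58 (16.6%), and larger in none (17.2% of all genes in RPFs and 13.4% in RNA). Of the 6 Kupffer markers, 5 were called larger at day 10 in the same RPF comparison, against those 17.2% of all genes, and their part was not tested. Of the 44 members with over 3 RPF counts in a WT mouse of day 4, 38 were smaller in RPFs and 32 in RNA, and their median log2 difference was -3.01 in RPFs and -1.90 in RNA. Kif11 differed by -4.24 ± 0.68 in RPFs (adjusted p = 0.00111) and -1.98 ± 0.29 in RNA, Ect2 by -3.29 ± 0.52 in RPFs and Spc24 by -2.44 ± 0.29. Diaph3 was called smaller too, but its 2, 0 and 0 WT counts of day 4 leave the size of that difference poorly bounded. In TE edgeR called 0 of 58 (0.0638% of all genes were higher and 0.246% lower) with 16 at an unadjusted p under 0.05, 15 of them lower, and DESeq2 called 4 lower. With the mouse as a block 11 were called lower (1.21% of all genes), Kif18b, Cenpu, Diaph3, Kif2c, Anln, Kif23, Tpx2, Prc1, Kif11, Kif20a and Ect2, of which Kif18b and Cenpu were at 0 in WT of day 4. Without BM mouse 1 of day 10, 14 passed without the block.

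The difference between days did not pass in every member. The RPF effect of BM was not called different between days for Cenph, Cenpm, Cenpn, Cenpt, Zwint, Ska3 and Ckap2, of which 4 belong to the inner kinetochore. In Cenph, Cenpn, Ska3 and Ckap2 every BM mouse of day 10 nevertheless lay below every BM mouse of day 4 in RPF CPM, and in Cenpm, Cenpt and Zwint the days overlapped. Ckap2 in BM was counted 1645, 1001 and 1185 times at day 4 and 641, 82 and 66 at day 10. A difference that did not pass is not shown to be absent. Cenpt had 5.57, 9.31 and 13.7 RPF CPM in BM at day 10 against 1.22, 1.84 and 2.04 in WT, next to 11.1, 7.60 and 8.14 at day 4, and its RNA was 3.78, 4.13 and 3.90 CPM against 0.414, 0.587 and 0.737. The BM and WT mice were separate in both measures at both days, and the difference between days was 0.08 ± 0.49. Cenpm was counted 161, 77 and 86 times in BM and 12, 6 and 9 times in WT at day 10, a change of 3.01 ± 0.31 in RPFs and 3.61 ± 0.53 in RNA. Against WT of day 10, 27 of 46 members tested were still called higher in RPFs (24.5% of all genes) and 1 lower (22.3%), and 15 of 41 higher and 2 lower in RNA (22.9% and 22.8%). Over all 59, 27 lay above every WT mouse in RPFs (20.7%) and 20 in RNA (15.7%), with 2 below in each (19.3% and 15.3%). RPF calls numbered 15 without WT mouse 1 of this day and 17 without WT mouse 3. Mad2l1 passed at 1.47 ± 0.21 and Ect2 at 1.94 ± 0.38, whereas Kif11 at 1.26 ± 0.56 (adjusted p = 0.110) and Spc24 at 0.08 ± 0.18 did not. In TE edgeR and DESeq2 called 0 of 37 (0.115% of all genes higher and 0.144% lower), with 6 at an unadjusted p under 0.05, and with the mouse as a block Ckap2, Diaph3, Ect2 and Racgap1 were called higher (2.38% of all genes).

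The members called lower than WT at day 10 were few. Ska2, of the SKA complex, had 1.74, 1.09 and 1.40 RPF CPM in BM and 2.27, 3.99 and 2.52 in WT, with no overlap and a change of -1.05 ± 0.33 (adjusted p = 0.0406). It was counted 30, 14 and 17 times and 26, 39 and 21 times in these mice. RNA of Cenpl was 4.37, 2.06 and 1.82 CPM in BM and 7.87, 4.70 and 6.14 in WT, a change of -1.13 ± 0.38 (adjusted p = 0.0440), and RNA of Zwint 27.6, 31.0 and 33.2 and 49.3, 45.6 and 36.3, a change of -0.53 ± 0.16 (adjusted p = 0.0283). Both were below every WT mouse, and all 3 falls are larger than the 0.36 in RPFs and 0.40 in RNA that library totals alone would add.

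**Figure D4:**
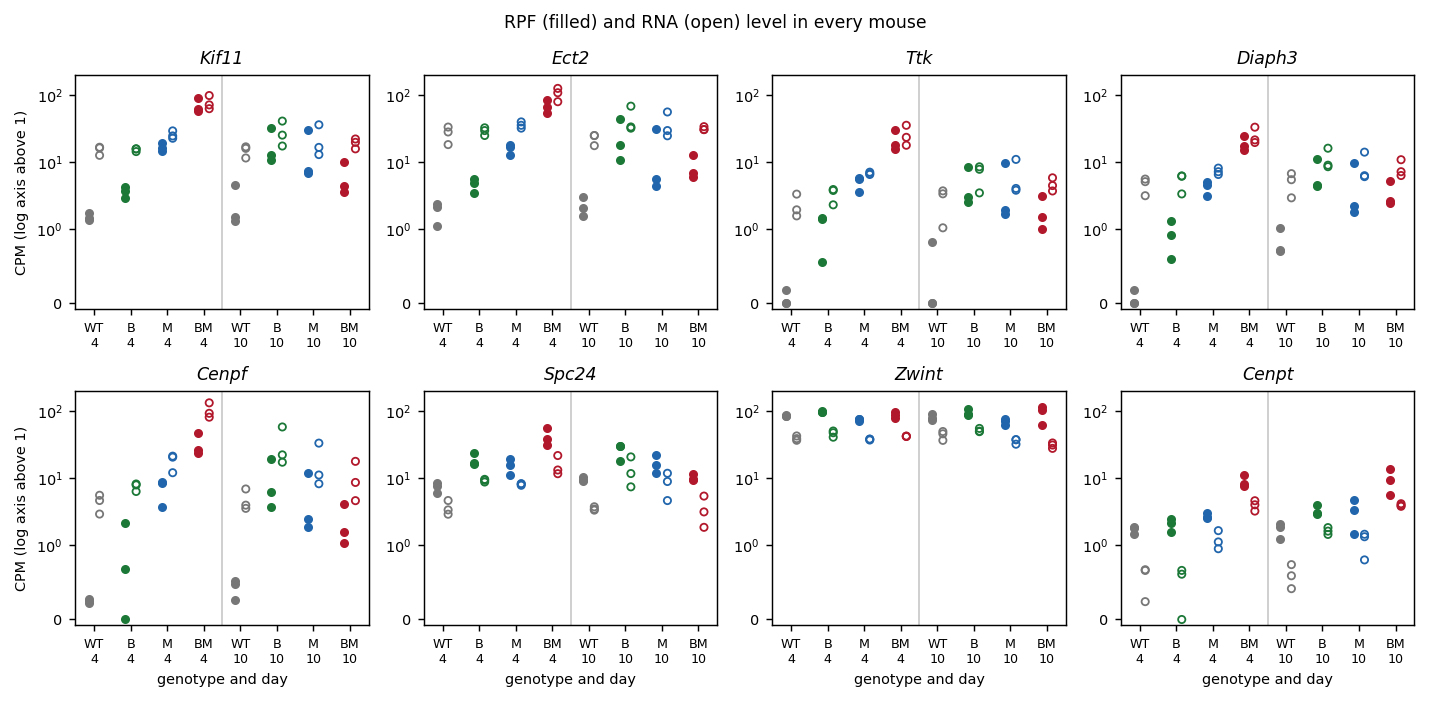
RPF (filled) and RNA (open) CPM of Kif11, Ect2, Ttk, Diaph3, Cenpf, Spc24, Zwint and Cenpt in each mouse, by group, on an axis that is linear below 1 and logarithmic above. Kif11, Ect2, Ttk and Diaph3 peak in BM at day 4, Zwint RPFs lie at 86.9, 84.0 and 84.3 CPM in WT of day 4 and 96.1, 79.7 and 87.9 in BM, and Cenpt RPFs in BM at day 10 reach 5.57, 9.31 and 13.7 CPM.

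Genes of other mitotic functions, such as cyclins, mitotic kinases and the anaphase-promoting complex, gave a frame for these numbers. Of 31 such genes, 13 of 24 tested were called higher (18.5% of all genes) and 1 lower (14.7%) in RPFs of M at day 4. Called higher were 23 of 30 in BM (26.2%) and 12 of 27 in B at day 10 (13.1%). Their median RPF change was 0.35 in M, 1.32 in BM and 0.28 in B at day 10, beside 2.56, 4.64 and 2.86 for the members fitted that had over 3 RPF counts in a WT mouse of the day. In TE 2 of 21 were called higher in M (0.884% of all genes) and 4 of 28 in BM (1.71%). The BM effect was smaller at day 10 in RPFs of 17 of 30 (18.6%) and larger in 1 (17.2%). Differences between this list and the members were not tested.

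Summed markers of some other liver cells did not overlap with WT in each genotype and on each day. In these bulk livers a smaller number of cells of a type and less RNA per cell cannot be told apart. Summed RPFs of 6 Kupffer cell markers ran from 669 to 778 CPM in WT and 389 to 411 in BM at day 4, those of 6 endothelial markers from 670 to 753 and 536 to 592, those of 6 stellate cell markers from 662 to 721 and 430.1 to 524, those of 5 cholangiocyte markers from 85.7 to 133 and 36.1 to 53.9, and those of 7 blood and immune markers from 30.7 to 37.3 and 16.5 to 21.3. In BM at day 4, 6 of 6 Kupffer, 5 of 6 endothelial, 4 of 6 stellate, 3 of 4 tested cholangiocyte and 2 of 2 tested blood and immune markers were called lower in RPFs, where 24.7% of all genes were, and none of any list higher. At day 10 Kupffer markers in BM ran from 833 to 894 CPM in RPFs against 541 to 745 in WT, and from 319.6 to 364 against 266 to 317 in RNA, above WT where they had been below it at day 4. In M at day 4 the RPFs of endothelial markers, at 508 to 625 CPM, of stellate markers, at 537 to 626, and of cholangiocyte markers, at 43.8 to 62.8, were all below WT, while Kupffer markers, at 437 to 1097, and blood and immune markers, at 17.7 to 60.5, spanned the WT range. In B at day 4 Kupffer markers, at 548 to 632, cholangiocyte markers, at 59.6 to 63.8, and blood and immune markers, at 25.0 to 28.7, were below WT. At day 10 WT mice held 663 to 779.8 CPM of endothelial and 718 to 823 of stellate markers. B mice lay below both, at 542 to 653 and 395 to 562, and so did M mice, at 488 to 546 and 539 to 618. BM mice of day 10 lay below WT in stellate markers, at 432 to 623, and overlapped in endothelial ones, at 554 to 708. Blood and immune markers at day 10 ran from 39.9 to 63.0 in B and 44.2 to 47.2 in BM against 28.6 to 43.8 in WT. In RNA endothelial and stellate markers were also below every WT mouse in M and BM at day 4 and in B, M and BM at day 10. In B at day 4 endothelial RNA, at 347 to 370 CPM, lay below the 388 to 413 of WT, and stellate RNA overlapped. Kupffer RNA of day 4, at 265 to 330 in WT, was lower in B, at 200 to 233, and BM, at 120 to 142, and spanned WT in M. Cholangiocyte RNA of day 4 overlapped with WT in B, M and BM. Blood and immune RNA of day 4 overlapped with WT in B and lay below it in M and BM. All 6 hepatocyte markers were called lower in BM at day 4, and no marker of any list was at 0 in RPFs. Summed RPFs of hepatocyte markers lay below every WT mouse in B, M and BM on both days. At day 4 they ran from 78411.5 to 87683.6 CPM in WT and 62068.6 to 75996.7 in B. M mice held 50937.5 to 64165.9 and BM mice 35886.7 to 42930.5. At day 10 they ran from 73056.3 to 94727.3 in WT and 39554.2 to 43474.1 in B. M mice then held 45952.7 to 48086.9 and BM mice 35368.1 to 47685.4. The part of these shifts in the values of the 59 members was not tested.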

How the data were processed

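Livers of 24 mice (3 per genotype and day, male, ground after snap-freezing) gave 48 libraries. The authors trimmed RPF reads with Cutadapt 1.18, removed PCR duplicates by molecular identifiers, aligned to the most abundant protein-coding transcript per gene (GENCODE vM27, GRCm39) with BBmap and deposited counts over coding sequences, leaving out codons at both ends. For RNA the authors deposited expected counts and TPM per isoform from RSEM 1.3.3 on Bowtie2 2.3.5.1 alignments of rRNA-depleted cytoplasmic RNA, summed here per gene and rounded (at least 99.92% were whole already). Symbols came from GENCODE vM39 (20614 of 20622 genes matched), as did promoters and start codons, although the counts rest on vM27 models: 9 of the 59 transcripts have the same length in both. Transcripts absent from an RPF file were taken as 0.

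Genes passing edgeR's filterByExpr (minimum count 10, minimum total 15) were scaled by TMM within each library type and fitted by quasi-likelihood in R 4.3.3 with edgeR 4.0.16 on the 24 mice. TE was the interaction of group and library type over the 48 libraries. Over 10 comparisons and 3 measures, 30 tests were read for the members, p-values being adjusted over all genes within each. The scripts were tested on simulated data. DESeq2 1.42.0, no filter, other scaling, each mouse left out and the mouse as a block were alternatives. The block is a true pairing, since RPFs and RNA came from the same mouse and their deviations correlated in 24 of 24 mice (r from 0.156 to 0.605). Folds with 1 to 3 WT counts in a mouse have exact 95% counting intervals, which cover counting error only, and folds against a group at 0 are bounds from 3 counts per library. Python 3.11.15 with SciPy 1.17.1 was used for levels.

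The 59 members, their roles and the marker lists were chosen with earlier results of these data known. Values in every mouse are given for the 2 members of each role with the highest mean RPF level, for those with at most 3 WT counts and the 6 highest folds, and for members called lower. A further part of that rule, members whose MYC or combined effect differs between days, took 52 in RPFs and is given by range and heat map. Members named beyond the rule were chosen after their values were seen.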

Additional observations from a re-analysis of the deposited data

Results flagged for a closer look

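The effect of an allele differed between day 4 and day 10 by a test of the difference itself in 4 sets of results. For BM against WT, 52 of 59 members differed in RPFs and 43 of 58 in RNA, every one of them smaller at day 10. For B against WT, 12 of 57 differed in RPFs, 11 larger and Cenpu smaller at day 10, and 7 of 50 in RNA, all larger: Cenpf, Ska3, Birc5, Kif20a, Kif20b, Nusap1 and Cdkn3. Cenpu was counted 0, 0 and 0 times in WT and 5, 10 and 8 in B at day 4 and 3, 7 and 6 and 17, 16 and 27 at day 10, so its effect at day 4 is set against a group at 0. Leaving out 1 mouse moved the B counts between 2 (without WT mouse 3 of day 4 or of day 10) and 22 (without WT mouse 2 of day 10) in RPFs and between 2 (without WT mouse 1 of day 10) and 12 (without B mouse 1 of day 10) in RNA. Each day has its own WT mice, so a difference holds the spread of both WT groups.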

How the results depend on the processing

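Of 528 repeats of counts and summed folds under other settings, 455 stayed within 1.5 times the value given or within the spread between mice, 73 moved and 0 turned in direction, and of 450 repeats for single members 393 kept their call and 57 lost it. The cause was not tested. With the mouse as a replicate block in TE, which is the true pairing, calls became 2 for B at day 4, 19 for B, 6 for M and 4 for BM at day 10, 10 for BM against M and 11 for the BM difference between days. DESeq2 gave 1 TE call for B at day 10, 1 RNA call for B at day 4, 2 RPF calls for the M difference, 4 TE calls for the BM difference and 19 RPF calls for the B difference. Without a filter on low counts there were 15 RPF and 4 RNA calls for B at day 4, 36 RNA calls for M at day 10 and 22 RNA calls for the B difference. Library totals alone made the summed fold 2.70 in RPFs and 2.10 in RNA of M, 10.8 and 7.51 of BM at day 4, and 2.13 and 1.83 of BM at day 10. The summed RPF fold over all members was 1.34 for B, 2.28 for M and 7.88 for BM at day 4, and is held down by Zwint. Without Zwint the fold was 1.50 for B, 3.44 for M and 13.6 for BM at day 4. Without Zwint and Bub3 it was 2.00, 6.03 and 26.2 at day 4 and 6.09, 4.21 and 2.70 for B, M and BM at day 10. These last fell to 4.01 without B mouse 3, 2.18 without M mouse 3 and 1.94 without BM mouse 1. Leaving out 1 mouse at a time gave TE calls of 11 to 20 for M and 14 to 30 for BM at day 4, 0 to 2 for B, 0 to 1 for M and 0 to 3 for BM at day 10, 0 to 2 for the M difference and 0 to 14 for the BM difference. RPF calls ran from 4 to 12 for B at day 4, 3 to 39 for M and 15 to 32 for BM at day 10, 0 to 16 for the M difference and 2 to 22 for the B difference. RNA calls ran from 1 to 3 for B at day 4, 18 to 39 for B, 3 to 21 for M and 9 to 18 for BM at day 10 and 2 to 12 for the B difference. Same-numbered mice of different genotypes shared only a number, with correlations that were not all above 0.1. Depth limits 15 members, which held 3 or fewer RPF counts in each WT mouse of day 4.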

Other observations

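RPFs were counted on 1 transcript per gene, while the RNA level sums all isoforms, and 28 of the 59 members have a single isoform in the RNA tables. Between WT and BM livers of day 4 the share of RNA on the counted transcript went from 48.7% to 51.0% for Ect2, of 347 and 1844 counts pooled over 3 mice, and from 59.1% to 57.6% for Zwint, of 518 and 742. It went from 13.2% of 91 counts to 46.3% of 259 for Cenpw, the histone-fold partner of Cenpt, whose TE change in BM was 1.94 ± 0.31. Among other members called in TE in BM, it went from 42.3% to 57.8% for Ndc80 and from 53.2% to 65.25% for Cdkn3. For Kif2c it went from 49.1% to 58.5%, and for Ttk it fell from 70.0% to 52.4%. For Prc1 it was low in both, at 12.6% and 15.6%. The part of such shifts in TE was not tested. The RPF level of Cenpw was 1.01, 1.58 and 1.24 CPM in the WT mice and 12.6, 8.65 and 9.26 in BM, and its RNA level 6.68, 6.80 and 7.20 CPM in WT and 16.4, 13.1 and 14.1 in BM, with no overlap in either.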
